A study of Mus musculus with 4 samples.

Results

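The genes described here encode the receptors, ligands and first substrates of insulin and insulin-like growth factor (IGF) signalling. They are the 8 mouse genes Insr, Igf1r, Insrr, Igf2r, Igf1, Igf2, Irs1 and Irs2, taken by name out of 21887 protein-coding genes in a RefSeq gene table of GRCm38.p6, the assembly behind build mm10. By role they were 4 receptors, 2 ligands and 2 substrates. Binding of FOXL2, a forkhead factor that marks the supporting cells of the ovary, was mapped by ChIP-seq, in which bound DNA is recovered with an antibody to FOXL2 and sequenced. The chromatin came from ovaries (XX gonads) of CD1 mouse embryos at E14.5, with 2 FOXL2 ChIP samples and 2 input samples, the input having had no antibody. No genotype or treatment was given for any sample. Pools of 80 to 100 ovaries went into each ChIP after removal of the mesonephros, so the list itself does not show in which cells of the ovary a peak was bound.

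The values are the positions of 11438 peaks in 1 list for both ChIP samples, each 300 bp wide, without a height, score or value per sample. Read depth is therefore unknown, no value has a replicate error, and no difference below was tested. Because the list holds positions only, no marker of the labelled tissue could be checked. Every peak of the 8 genes was kept where its centre lay in the gene or within 100 kb of either end. The threshold of the list is not given in the sources used here, so weaker binding at places with no listed peak cannot be told from its absence.

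Insulin and the IGFs are secreted hormones that bind receptor tyrosine kinases at the cell surface. The activated receptor phosphorylates the insulin receptor substrates, which recruit PI3-kinase and so switch on AKT, the FOXO factors and mTOR downstream. In the mouse gonad the pathway is known from XY embryos that lack Insr, Igf1r and Insrr together, which form ovaries in place of testes. In the ovary after birth, IGF1 acts with follicle-stimulating hormone on granulosa cells.

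The sequences before the gene starts are shown first, since the member genes differed in whether a peak covered this stretch. Each is the 250 bases before a start listed by RefSeq on build GRCm38.p6, in the direction of transcription, and 6 of the 8 members had a listed start. Capitals mark letters of the motifs searched, on both strands. The motifs were the forkhead core GTAAACA with its shorter form TAAACA, which lies within it, and the reported FOXL2 element GTCAAGG. The others were the E-box CACGTG, the CCAAT box, the Sp-family motif GGGCGG, the cyclic AMP element part TGACGT, the AP-1 site TGAGTCA, the ETS core CTTCCGG, the GATA site AGATAA and the nuclear receptor element AAGGTCA. In Igf2r a match of TGACGT and a match of CACGTG overlap. The first 2 sequences lay partly under a FOXL2 peak and the others did not. Igf2 has 4 listed starts, numbered along transcription, of which number 1 and number 3 are shown because they are the poorest and the richest of the 4 in CpG.
Igf1r, chr7:67952007-67952256, plus strand: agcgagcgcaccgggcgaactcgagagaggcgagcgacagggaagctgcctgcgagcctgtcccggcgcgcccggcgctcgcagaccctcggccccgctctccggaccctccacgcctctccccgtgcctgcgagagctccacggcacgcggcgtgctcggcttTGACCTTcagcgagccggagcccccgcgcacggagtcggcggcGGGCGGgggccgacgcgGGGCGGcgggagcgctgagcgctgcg
Igf2r, chr17:12769707-12769956, minus strand: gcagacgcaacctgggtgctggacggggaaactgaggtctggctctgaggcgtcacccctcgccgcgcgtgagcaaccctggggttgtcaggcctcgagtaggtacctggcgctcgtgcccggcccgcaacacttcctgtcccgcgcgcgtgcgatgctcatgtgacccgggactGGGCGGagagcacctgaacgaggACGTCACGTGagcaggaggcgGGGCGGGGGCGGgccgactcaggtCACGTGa
Irs1, chr1:82291440-82291689, minus strand: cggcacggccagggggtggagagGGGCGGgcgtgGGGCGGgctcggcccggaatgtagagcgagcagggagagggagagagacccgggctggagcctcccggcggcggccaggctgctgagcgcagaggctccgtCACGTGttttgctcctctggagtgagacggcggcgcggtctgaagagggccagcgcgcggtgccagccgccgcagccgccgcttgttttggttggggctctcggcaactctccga
Irs2, chr8:11008930-11009179, minus strand: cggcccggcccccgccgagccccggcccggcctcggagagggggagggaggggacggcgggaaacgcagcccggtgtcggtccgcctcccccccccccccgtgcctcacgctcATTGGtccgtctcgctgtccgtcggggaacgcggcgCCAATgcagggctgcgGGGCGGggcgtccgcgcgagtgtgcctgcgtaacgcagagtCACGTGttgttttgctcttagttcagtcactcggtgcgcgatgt
Igf1, chr10:87860861-87861110, plus strand: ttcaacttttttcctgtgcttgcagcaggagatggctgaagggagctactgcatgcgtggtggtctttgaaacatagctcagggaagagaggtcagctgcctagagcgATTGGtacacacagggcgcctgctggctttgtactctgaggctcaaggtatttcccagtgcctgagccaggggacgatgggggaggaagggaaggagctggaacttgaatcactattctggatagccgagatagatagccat
Igf2 start 1, chr7:142666817-142667066, minus strand: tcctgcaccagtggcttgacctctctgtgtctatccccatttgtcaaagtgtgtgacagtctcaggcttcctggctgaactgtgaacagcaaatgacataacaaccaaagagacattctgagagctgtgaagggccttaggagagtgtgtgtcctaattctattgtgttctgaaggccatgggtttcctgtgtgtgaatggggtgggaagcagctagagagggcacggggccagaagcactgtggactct
Igf2 start 3, chr7:142658805-142659054, minus strand: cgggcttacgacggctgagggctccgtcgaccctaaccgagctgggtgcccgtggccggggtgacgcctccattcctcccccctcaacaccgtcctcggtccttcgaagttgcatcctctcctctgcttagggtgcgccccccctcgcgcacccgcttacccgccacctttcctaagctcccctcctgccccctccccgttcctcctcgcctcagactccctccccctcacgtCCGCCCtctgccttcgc

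Of the 8 genes, 5 had a FOXL2 peak inside the gene, against a background of 36.2% of all protein-coding genes. The same 5, namely Insr, Igf1r, Igf2r, Irs1 and Irs2, had a peak inside or within 10 kb, against 49.6% of all protein-coding genes. Within 100 kb a peak was found for 6 of the 8, with Insrr added, against 76.3% of all protein-coding genes. Long genes hold more peaks, so each member was also set beside the genes within 1.5 times its own length. Among those genes the share with a peak inside ran between 36.7% for the length of Igf2 and 62.1% for the length of Igf1r. The share with a peak inside or within 10 kb ran between 52.2% for the length of Igf2 and 70.7% for the length of Insr. As counts of genes, 5 of 8 and 6 of 8 are thus near the background. The 8 windows held 15 peaks in all, 7 inside the genes, 4 outside within 10 kb and 4 farther out.

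**Figure D1:**
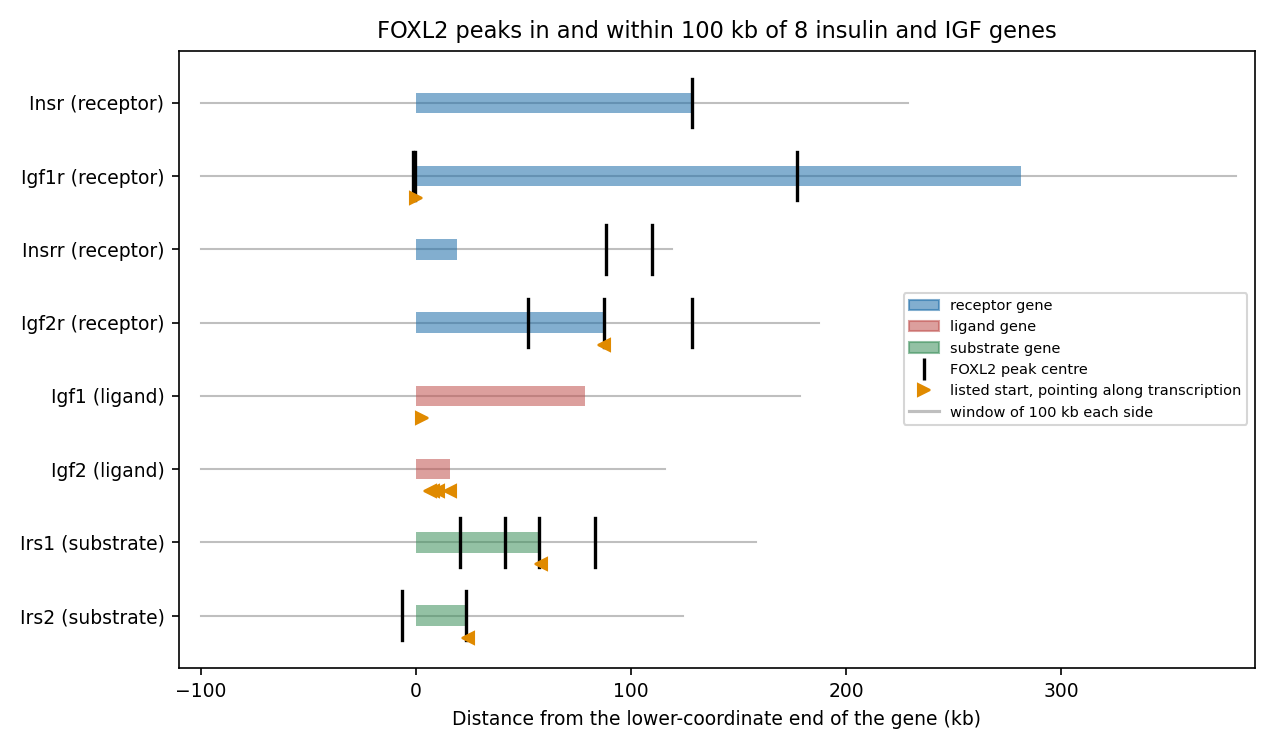
Map of the 15 FOXL2 peak centres (black ticks) in and around the 8 genes, drawn to scale in kb from the lower-coordinate end of each gene, with gene bodies as coloured bars and RefSeq starts as arrows. The ligand windows hold 0 peaks, while Irs1 has 3 inside the gene and Igf1r has 2 next to its start.

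The roles differed in their counts. The 4 receptor genes had 9 peaks within 100 kb, the 2 substrate genes had 6 and the 2 ligand genes had 0. Some of these peaks lay at borders of neighbouring genes. With each peak counted for its nearest gene alone, the receptors had 6, the substrates 5 and the ligands 0. For the length of each of the 8 genes, the median count within 100 kb was 2 peaks per gene. Genes of like length with at least as many peaks within 100 kb made up 86.9% for Insr (1 peak), 66.0% for Insrr (2), 65.8% for Irs2 (2), 48.1% for Igf2r (3), 33.9% for Igf1r (3) and 26.1% for Irs1 (4). The counts of the receptors and substrates within 100 kb are thus common ones. Per 100 kb of window, with the full counts, this was 0.68 peaks for the receptors, 1.24 for the substrates and 0 for the ligands. Inside the genes alone it was 0.58 peaks per 100 kb for the receptors and 4.84 for the substrates, whose genes are shorter (82.6 kb together against 516.6 kb). These 2 values leave out the peaks centred 74 bp outside Igf2r and 238 bp outside Igf1r. They count those centred 774 bp inside Irs2 and 1103 bp inside Irs1. Inside or within 10 kb the receptors had 6 peaks and the substrates 5. Of the peaks inside or within 10 kb, the receptors had 3 within 1 kb of the gene's own border and 3 farther from it, and the substrates had 1 and 4. The farther ones include a peak of Igf1r at 1073 bp and a peak of Irs1 at 1103 bp, just past the limit. With 2 to 4 genes a role these numbers describe the genes and were not tested against each other.

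**Figure D2:**
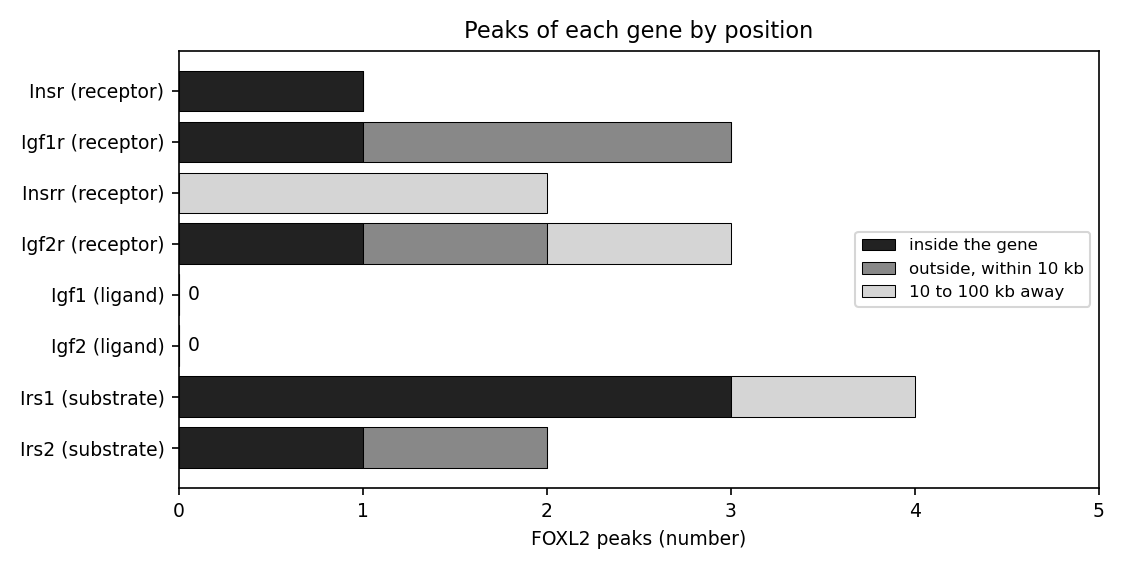
Number of FOXL2 peaks of each gene, divided by position (inside the gene, outside within 10 kb, 10 to 100 kb away). Irs1 has the most peaks with 4, both peaks of Insrr lie 10 to 100 kb away, and Igf1 and Igf2 have 0.

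Among the receptors, Insr encodes the insulin receptor, a tyrosine kinase that binds insulin and, less tightly, the IGFs. The gene spans 128.7 kb on chromosome 8 (chr8:3150922-3279649). Its only peak, chr8:3279287-3279586, was centred inside the gene, 213 bp from the higher-coordinate end. Of genes of like length, 61.8% had a peak inside and 70.7% had one inside or within 10 kb. The next peak lay 113.5 kb beyond that end, just outside the window.

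Igf1r encodes the IGF1 receptor, the main kinase through which IGF1 and IGF2 signal. The gene lies on the plus strand of chromosome 7 (chr7:67952257-68233668) and is the longest of the 8 at 281.4 kb. It had 3 peaks. The peak chr7:67951870-67952169 was centred 238 bp upstream of the start and covered 163 of the 250 bases shown. The peak chr7:67951035-67951334 was centred 1073 bp upstream of the start, 835 bp from the first. Of all peaks, 10.4% had another centre within 1 kb. The last of the 3, chr7:68129270-68129569, lay deep in the gene, 177.2 kb downstream of the start and 104.2 kb from the nearer end. Of genes within 1.5 times the length of Igf1r, 9.96% had at least 3 peaks inside or within 10 kb.

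Igf2r encodes the cation-independent mannose 6-phosphate receptor, which takes up IGF2 for breakdown and has no kinase. It is an imprinted gene in the mouse, and transcription of the antisense noncoding RNA Airn silences the paternal copy. The gene lies on the minus strand of chromosome 17 (chr17:12682406-12769706) and had 3 peaks within 100 kb. The peak chr17:12769631-12769930 spanned the start, with its centre 74 bp upstream, and covered 224 of the 250 bases shown. The peak chr17:12734463-12734762 lay inside Igf2r, 35.1 kb downstream of its start and 6699 bp upstream of the Airn start. The peak chr17:12810537-12810836 lay 41.0 kb upstream of the Igf2r start, within the Airn gene, and its nearest protein-coding border was that of Mas1, 28155 bp away. The peak at the Igf2r start lay within the Airn gene as well, so position alone does not tie it to one of the overlapping genes. Of genes of the length of Igf2r, 25.3% had at least 2 peaks inside or within 10 kb.

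Insrr encodes the insulin receptor-related receptor, a relative of the insulin receptor that does not bind insulin and responds to alkaline medium. The gene is the shortest receptor gene at 19.2 kb (chr3:87796908-87816101) and had no peak inside or within 10 kb, whereas 53.7% of genes of its length had one, and 82.6% had one inside or within 100 kb. Both peaks of its window lay at the borders of neighbours. The peak chr3:87885213-87885512 was 69.3 kb from Insrr and 200 bp inside Prcc, and the peak chr3:87906619-87906918 was 90.7 kb from Insrr and 82 bp upstream of a start of Hdgf. The Insrr window was also the fullest of the 8, with 7 other protein-coding genes. The second peak of Insrr lay farther from its gene than any other peak counted for the 8 genes. On the sides of the genes with no peak within 100 kb, the nearest one beyond that limit was 111.1 kb from Igf2r.

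The ligand genes were the only members with no peak in their windows of 100 kb. Insrr, like them, had none inside or within 10 kb. It also had 0 when each peak was counted for its nearest gene alone. The Insrr window held 7 other protein-coding genes and the Igf2 window 1. Igf1 encodes the growth factor that binds the IGF1 receptor and is the main mediator of growth hormone. It spans 78.8 kb on chromosome 10 (chr10:87858265-87937047), and its window held no other protein-coding gene. Of genes of like length, 67.5% had a peak inside or within 10 kb and 87.1% inside or within 100 kb. The nearest peak lay 210.0 kb above the gene, 63 bp from a border of Nup37. Of all protein-coding genes, 15.6% lay as far from their nearest peak or farther.

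Igf2 encodes the fetal growth factor of the family, which is expressed in the mouse from the paternal copy only in most tissues, beside the oppositely imprinted noncoding gene H19. Igf2 lies on the minus strand of chromosome 7 (chr7:142650768-142666816) and spans 16.0 kb. Of genes of like length, 52.2% had a peak inside or within 10 kb and 82.5% inside or within 100 kb. The Igf2 window, which was without a peak, also held the insulin gene Ins2 and the H19 gene, which lay 72.6 kb from Igf2. The nearest peaks lay 117.5 kb below Igf2, 774 bp from a border of Mrpl23, and 341.4 kb above it, 3281 bp from a border of Tspan32. Of all protein-coding genes, 21.7% lay as far from a peak or farther. Neither ligand is therefore rare in its distance, and both lay farther from a peak than any of the receptors and substrates.

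**Figure D3:**
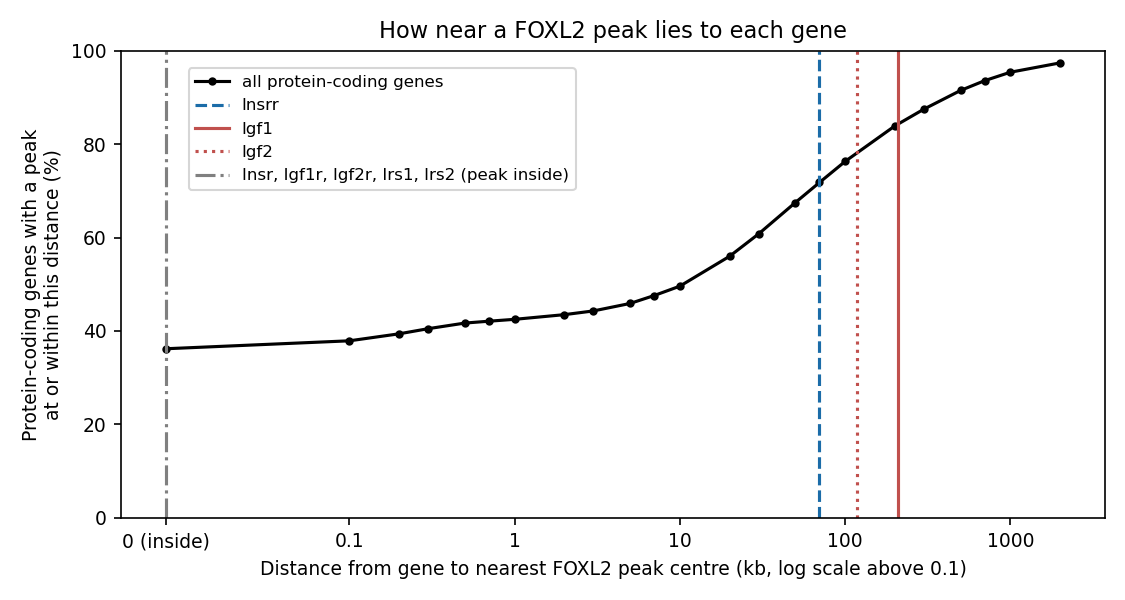
Cumulative share of all protein-coding genes (vertical axis, %) by the distance from the gene to its nearest FOXL2 peak centre (horizontal axis, kb, log scale above 0.1), with vertical lines for the members. Insr, Igf1r, Igf2r, Irs1 and Irs2 are at 0 because a peak lies inside, Insrr is at 69.3 kb, Igf2 at 117.5 kb and Igf1 at 210.0 kb.

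Of the 5 substrate peaks inside or within 10 kb, 4 lay more than 1 kb from the gene's own border. The nearest of these was just past that limit, at 1103 bp in Irs1. Irs1 encodes insulin receptor substrate 1, a docking protein that the activated insulin and IGF1 receptors phosphorylate. It lies on the minus strand of chromosome 1 (chr1:82233105-82291439) and spans 58.3 kb. Its 3 peaks inside the gene were centred 1103 bp, 16.9 kb and 37.5 kb downstream of the start. They are chr1:82290187-82290486, chr1:82274354-82274653 and chr1:82253756-82254055. Of genes within 1.5 times the length of Irs1, 0.727% had at least 3 peaks inside and 3.61% had at least 3 inside or within 10 kb. Of all protein-coding genes, 0.781% had at least 3 inside. The limit of 3 is the count of Irs1 itself, and its share is the smallest among the members. The other members with a peak inside had 1 each. At least 1 was found inside between 41.3% (length of Irs2) and 62.1% (length of Igf1r) of genes of like length. None of the 3 peaks inside Irs1 covered the 250 bases before the start. The fourth peak of the window, chr1:82316454-82316753, was centred 24 bp downstream of a start of the neighbour Rhbdd1, 25.2 kb from Irs1. On the other side of Irs1 the next peak was 1474.5 kb away, near Dock10.

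Irs2 encodes insulin receptor substrate 2, a second docking protein of the same receptors. It lies on the minus strand of chromosome 8 (chr8:10984681-11008929), spans 24.2 kb and had 2 peaks. The peak chr8:11008006-11008305 was centred inside the gene, 774 bp downstream of the start. It also lay 305 bp downstream of the start of 9530052E02Rik, a long noncoding RNA gene on the other strand, so position alone does not tie it to one of them. The peak chr8:10978367-10978666 lay 6165 bp beyond the other end of Irs2, where transcription ends, and 30.4 kb from its start. Of genes of the length of Irs2, 14.9% had at least 2 peaks inside or within 10 kb. No other protein-coding gene lay in the Irs2 window.

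Off-border peaks, those more than 1 kb away from all borders of protein-coding genes, were found inside or within 10 kb of 4 of the 8 genes. Irs1 had 3 such peaks, Igf1r had 2, and Igf2r and Irs2 had 1 each. The background was 13.7% of all protein-coding genes. For genes of like length it was 37.0% for Igf1r, 25.8% for Igf2r, 18.9% for Irs1 and 12.8% for Irs2, and for the members with no such peak 30.6% for Insr, 12.0% for Insrr, 23.6% for Igf1 and 11.6% for Igf2. The nearest peak of Irs1 at 1103 bp and the farther border peak of Igf1r at 1073 bp fall just past the 1 kb limit. Without those, Irs1 keeps the peaks at 16.9 and 37.5 kb, and Igf1r keeps the internal peak. Insr had none of this kind, and its peak at the border was its only one.

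The stretch before the start was compared in the 6 members with a listed start. A peak overlapped the promoter window, from 250 bases before to 50 after the start, in Igf1r and Igf2r, which is 2 of 6, against 24.5% of protein-coding genes with a listed start. CpG content was measured as the number of CG pairs over the number expected from the C and G content. It was 1.12 in Igf1r and 0.91 in Igf2r, both overlapped by a peak. It was 0.90 in Irs1 and 1.03 in Irs2, where the nearest peak was centred 1103 bp and 774 bp from the start. In Igf1 it was 0.30, and in the 4 Igf2 promoters it was 0.06, 0.74, 0.88 and 0.25 along transcription. Of all 21263 listed promoter windows, 22.3% were overlapped by a peak, and the share differed with this ratio. With the windows in 4 equal groups by the ratio, it was 0.546% in the lowest, 8.73% and 33.2% in the next groups and 46.6% in the highest, whose lower bound is 0.80. Igf1r, Igf2r, Irs1, Irs2 and start 3 of Igf2 are in the highest group, and Igf1r and Igf2r alone among them were overlapped by a peak. Start 1 of Igf2 is in the lowest group and Igf1 in the one above it, where few promoters carried a peak. Start 3 of Igf2 has a CpG content like that of the Igf2r and Irs1 promoters and had no peak within 100 kb. The part of CpG content in the counts above was not tested.

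**Figure D4:**
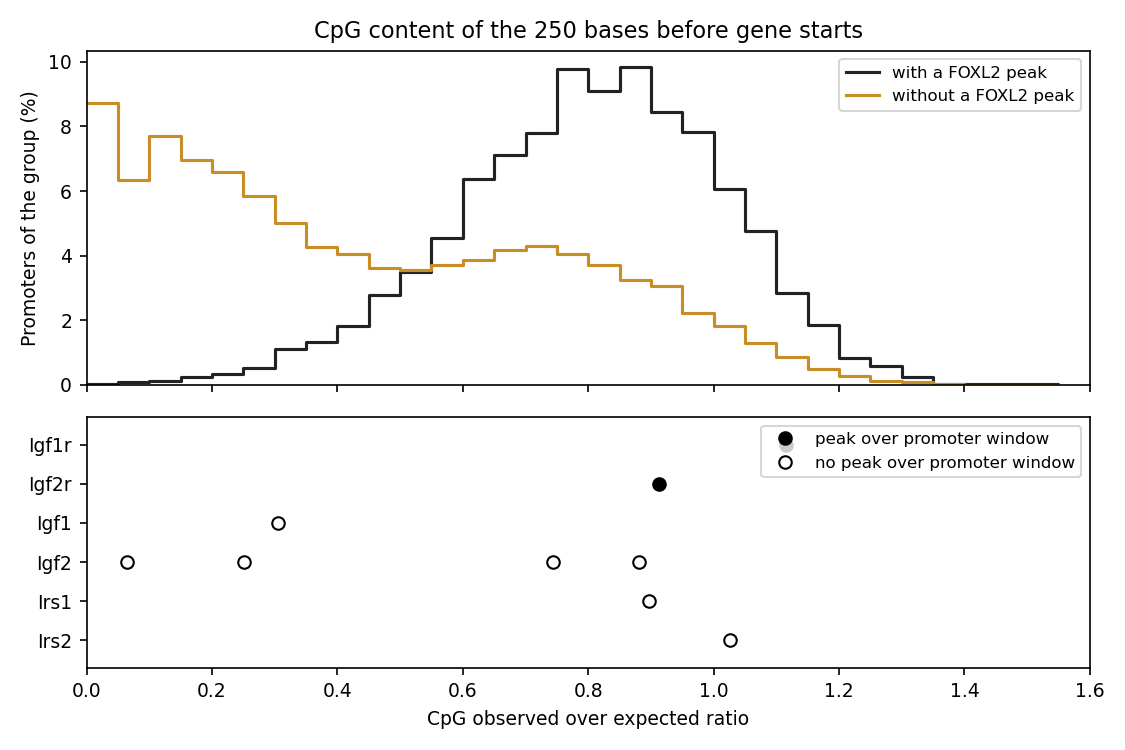
CpG observed over expected ratio of the 250 bases before gene starts (horizontal axis), as the share of promoters per bin (upper panel, %) for those with and without a FOXL2 peak, and for the starts of 6 members (lower panel, filled where a peak overlaps the promoter window). The filled points are Igf1r at 1.12 and Igf2r at 0.91, and the starts of Igf2 range between 0.06 and 0.88.

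Neither the forkhead core GTAAACA nor its shorter form TAAACA was found before any of the 9 listed starts of the members. Over all listed promoters these letters are found in 2.62% and 10.5%. The reported FOXL2 element GTCAAGG was not found there either, and is found in 2.64% of all. The GC-rich motif GGGCGG, which Sp-family factors bind, was found before the starts of Igf1r, Igf2r, Irs1, Irs2 and 2 of the 4 Igf2 starts, and before 42.6% of all listed starts. CACGTG, the E-box of basic helix-loop-helix factors, was present in Igf2r, Irs1 and Irs2 and in 6.63% of all. TGACGT, part of the cyclic AMP response element, was present in Igf2r and in 7.37% of all. AAGGTCA, a nuclear receptor element of the kind that NR5A1 binds, was present in Igf1r and in 3.59% of all. CCAAT was present in Igf1, Irs2 and 1 start of Igf2 and in 35.4% of all. A match describes these letters only, and the sequence under the peaks farther inside the genes was not used here.

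The wider pathway was described with 73 other genes, all of which were found in the gene table. Of these, 50 (68.5%) had a peak inside or within 10 kb. The background was 49.6% of all protein-coding genes. For genes within 1.5 times the length of each listed gene, the share averaged 56.5% over the list. Off-border peaks were found at 21 of the 73 (28.8%), against 13.7% of all protein-coding genes and an average of 17.8% for genes of like length.

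Of the other ligand genes of the insulin and relaxin family, 0 of 6 had a peak inside or within 10 kb. The insulin genes Ins1 and Ins2 had none within 100 kb, whereas Insl3 had 2 and Rln1 had 3. These are short genes, with a median length of 2.12 kb, and genes of like length had a peak inside or within 10 kb in 25% of cases on average. Among the binding proteins, which hold IGFs in the extracellular fluid, and the proteases and inhibitors that set their release, 7 of 12 genes had a peak. The average share for genes of like length was 52.6%. For Igfbp6, Igfbp7 and Igfals, which are among the 7 genes, the only peak counted was nearest to a border of another gene. Stc2, an inhibitor of the protease PAPP-A, had 2 inside the gene, the nearer 517 bp from a border. The neighbours Igfbp2 and Igfbp5 on chromosome 1 had 1 peak each, 111 bp and 859 bp inside their own borders. The neighbours Igfbp1 and Igfbp3 on chromosome 11 had none within 100 kb. Igfbp4 had a peak 1316 bp inside a border, whereas Stc1 had none within 100 kb and Pappa had 1 there.

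Among the adaptors 7 of 10 genes had a peak, against an average of 58.7% for genes of like length. The RAS exchange factor genes Sos2 and Sos1 had 3 and 2, with the nearest 354 bp and 82 bp inside a border, and 1 of the Sos2 peaks was nearest to Vcpkmt. The docking protein gene Gab1 had 1, at 176 bp inside. Both peaks counted for Shc1 were nearest to other genes, Pygo2 and Flad1. Irs3, a further member of the substrate family, had no peak within 10 kb, nor had Sh2b1 and Sh2b2. Of the inhibitors of the receptors 6 of 8 had a peak, against an average of 58.3% for genes of like length. Grb10, an imprinted gene whose product binds and restrains the insulin and IGF1 receptors, had 2 inside, the nearer 157 bp from a border. Socs1 had 1 at 314 bp outside, and Ptprf and Socs2 had 1 each at 767 bp and 1579 bp inside. Grb14, the relative of Grb10, and Enpp1 had none within 100 kb.

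Downstream of the substrates, 7 of 9 genes of PI3-kinase and lipid phosphatases had a peak. The average share for genes of like length was 61.7%. The catalytic subunit gene Pik3ca had 2, the nearer 63 bp inside a border, and Pik3cb had 1 at 587 bp inside. The regulatory subunit genes Pik3r3 and Pik3r1 had 1 each, at 77 bp outside and 213 bp inside. Pik3r2 and Pik3cd had none within 10 kb. In the AKT branch 9 of 10 genes had a peak, against an average of 65.1% for genes of like length, and the exception was Gsk3a. Pdpk1, the kinase that activates AKT, had 3, of which 2 were nearest to Kctd5 and Amdhd2. The AKT phosphatase genes Phlpp2 and Phlpp1 and the kinase gene Gsk3b had 2 each, with the nearest at 139 bp, 312 bp and 419 bp from a border.

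Among the FOXO genes, whose products AKT keeps out of the nucleus, Foxo1 had 2 peaks, Foxo6 and Foxo3 had 1 each and Foxo4 had none within 10 kb. As a count this was 3 of 4 genes, against an average of 58.6% for genes of like length. In the mTOR branch 8 of 11 genes had a peak, against an average of 58.9% for genes of like length. For Rps6kb2, among the 8, the only peak counted was nearest to a border of another gene. Mtor had 3, the nearest 106 bp inside a border, and Mlst8 had 3, of which 2 were nearest to Pgp and Caskin1. Rictor and Rheb had 1 each, at 148 bp and 176 bp inside. Eif4ebp1, Eif4ebp2 and Tsc2 had none within 10 kb. All 3 genes of the IGF2 mRNA-binding proteins, which bind Igf2 transcripts, had a peak inside the gene. Of genes of like length, 68.0% on average had a peak inside or within 10 kb. Igf2bp1 had 3, Igf2bp2 had 2 and Igf2bp3 had 1, with the nearest 169 bp, 484 bp and 1700 bp from a border.

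**Figure D5:**
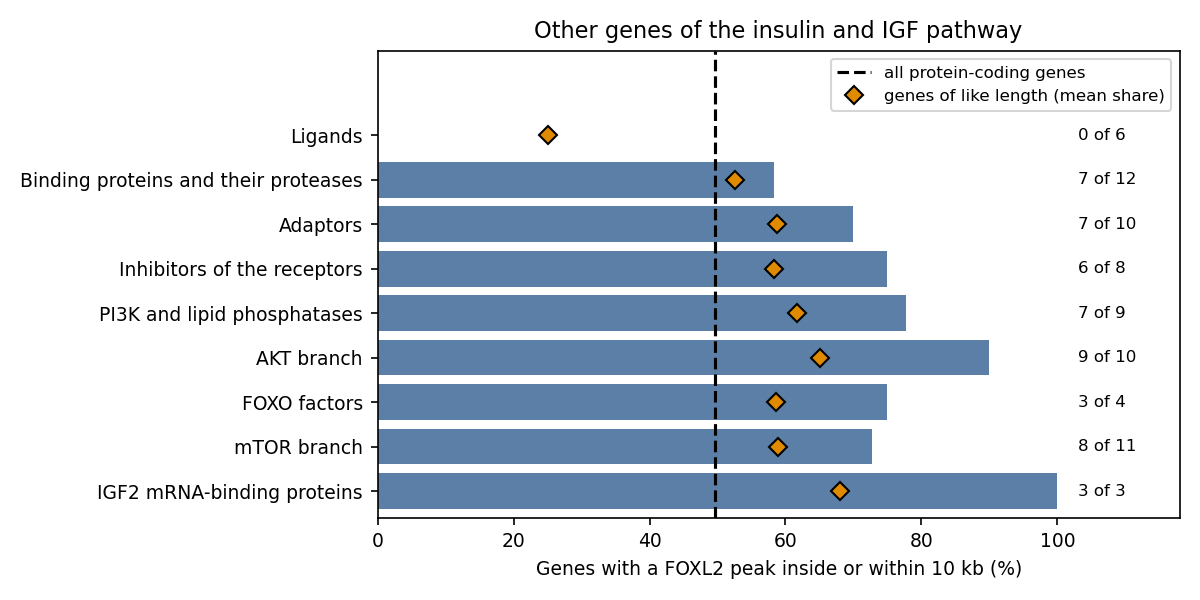
Share of the genes of each role in the wider pathway with a FOXL2 peak inside or within 10 kb (bars, %, with the counts beside them), with all protein-coding genes as a dashed line (49.6%) and the mean share of genes within 1.5 times the length of each listed gene as diamonds. The ligand genes are at 0 of 6 beside a mean share of 25%, and the AKT branch is at 9 of 10 beside 65.1%.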

How the data were processed

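The authors' deposited list gives the start and end of each FOXL2 peak in bp, for both ChIP samples together. Per the submitters' processing notes, Bowtie 1.2, Picard 1.110, bedtools 2.24.0, HOMER 4.9 and build mm10 were used; their roles, the peak threshold and the pooling of samples were not stated there, and they set which sites count as peaks. Groups came from the sample titles. Starts were made 1-based, and 11435 peaks on chromosomes 1 to 19, X and Y were used by their centres. Genes (49943 of all kinds) and promoters came from RefSeq tables of GRCm38.p6, which give no exons, so exon, intron and UTR are not stated. Counts were made in Python 3.11.15 with pandas 2.3.3, after the counting was tested on simulated data. No test was run, because the list has no replicate values.

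All 8 members were described, with the protein-coding gene nearest to each peak. Of each role in the wider pathway, up to 4 genes with a peak within 10 kb were named, by peak number and then nearness to a border, and up to 4 without, by shortness. Pathway genes whose only counted peak was nearest to a border of another gene were named as well. A few neighbouring genes that this takes are not reported here. The members, lists and limits were chosen with earlier results of these data known. Alternatives were windows of 5 and 50 kb, overlap in place of the centre, merging within 500 bp, off-border peaks, the nearest gene alone, and genes of all kinds.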

Additional observations from a re-analysis of the deposited data

How the results depend on the processing

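The counts of members with a peak, 5 within 10 kb and 6 within 100 kb, moved by at most 1 under every alternative run. The closest peaks of a member were 835 bp apart, in Igf1r. Merging within 500 bp could therefore not change the counts of the members, and a wider merge was not run. Counted for its nearest gene alone, a peak remained for 5 members, and the 15 peaks became 11: Insrr had 0 in place of 2, and Igf2r and Irs1 lost 1 each. The ligands had 0 peaks within 100 kb under each alternative run at that distance. Their nearest peaks lay at 117.5 kb (Igf2) and 210.0 kb (Igf1), so none of these alternatives could have added one. A window wider than 100 kb was not run. With off-border peaks alone, more than 1 kb away from all borders, pathway genes with a peak numbered 21 in place of 50, and the share of all protein-coding genes was 13.7% in place of 49.6%. With genes of all kinds that share was 30.9%. A limit of 1 kb from a listed start, chosen after the data were examined, added Irs2 to Igf1r and Igf2r, and the share of all genes with a listed start was then 38.4% in place of 24.5%. No paired analysis was possible because the list holds no value per sample; leaving out a replicate, a stricter peak threshold and motifs within peaks were not run, as the files used here hold no score and no genome sequence.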

Other observations

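Of the 21263 listed promoter windows, 4732 were overlapped by a FOXL2 peak, and their 250 bases before the start differed in letters from the rest. GGGCGG was present in 67.0% of promoters with a peak and in 35.7% of those without. CTTCCGG, the core bound by ETS factors, was present in 18.7% of promoters with a peak and in 6.19% of those without, and CACGTG in 9.66% and 5.76%. The forkhead core GTAAACA was present in 2.7% with a peak and in 2.6% without, and its shorter form TAAACA in 7.57% with a peak and in 11.3% without. The reported FOXL2 element GTCAAGG was present in 2.05% with a peak and in 2.81% without. Other motifs were also less frequent with a peak than without, namely AGATAA (4.59% and 10%), TGAGTCA (2.35% and 4.56%) and AAGGTCA (2.07% and 4.03%). The median CpG observed over expected ratio was 0.81 with a peak and 0.38 without. These values describe a fixed stretch, and a peak counted as overlapping it need not cover all of it. They were not tested, and the part of base composition in them was not tested either.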
